A study of Mus musculus with 4 samples.

Results

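The genes described here are the 35 members of a list of glycolysis and hypoxia response genes, given by name, with a rule that uses no measured value, out of the 53465 genes counted in the study. RNA-seq was performed on MDSCs, immature myeloid cells with suppressive functions that expand in cancer, sorted from the spleens of BALB/c mice that carried 4T1 tumors, a transplantable mammary carcinoma model of that strain. The mice were sacrificed on day 21 after the injection of the tumor cells according to the sample labels, although the study's methods place the sorting earlier. The control group (n = 2 libraries) was kept in control medium for 6 h and the EGCG group (n = 2 libraries) received 5 μg/mL of EGCG for the same time, EGCG being a polyphenol of green tea. The cells of all 4 libraries therefore came from tumor-bearing mice, and no library came from healthy mice. They were purified with magnetic beads through an antibody against the surface marker Gr-1 and were cultured ex vivo. The labels do not tell if replicate libraries represent separate mice or separate wells, so the p values measure only the spread between these libraries.

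Glycolysis splits glucose into pyruvate in the cytosol, and cells that use little oxygen reduce pyruvate to lactate and export it. HIF-1 is a transcription factor made of an oxygen-sensitive alpha subunit, encoded by Hif1a, and a stable partner, and it binds a short DNA element with the core ACGTG or GCGTG in or near many glycolytic genes. The prolyl hydroxylases mark the alpha subunit for degradation when oxygen is available, so that much of the control of HIF-1 lies at the protein level, which RNA-seq does not measure. Neutrophils and related myeloid cells rely strongly on glycolysis for their energy.

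The core letters of the HIF-1 element were present in the promoters of most members. Promoter windows of 300 bases (250 before to 50 after a transcription start, RefSeq, GRCm38.p6) were found for 32 of the 35 members. The motif ACGTG, searched on both strands so that it reads CACGT on the other strand, was found in a window of 24 of these 32 members, compared with 21.8% of all 27025 genes that have a window and 29.2% of the 9938 of them that were expressed here. Counted per window, which takes no account of genes with several starts, it was in 28 of 48 windows of the members (58.3%) and in 19.6% of all 32851 windows. The other form of the core, GCGTG, which reads as CACGC when found on the opposite strand, was found in 65.6% of the members and in 54.7% of the expressed genes. The palindrome CACGTG, which holds an ACGTG on each strand and is also the E-box bound by Myc and its partners, was found in 18.8% of the members and 11.7% of the expressed genes. These are matches of letters and not measured binding sites, and several members were put on such lists because they are known HIF-1 targets.

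The 250 bases before the start are shown for the 5 members with the smallest p values in the comparison below, with the motif in capitals (ACGTG or CACGT, and CACGTG where both overlap). Sequences are from RefSeq (GRCm38.p6) and read 5′ to 3′ on the strand of the gene, with the window that holds the most matches chosen where a gene has several. They lie at chr7:46845554-46845803 on the + strand for Ldha, chr19:41911621-41911870 on the + strand for Pgam1, chr19:53329163-53329412 on the + strand for Mxi1, chr7:138909507-138909756 on the - strand for Bnip3 and chr6:82774455-82774704 on the - strand for Hk2.
Ldha: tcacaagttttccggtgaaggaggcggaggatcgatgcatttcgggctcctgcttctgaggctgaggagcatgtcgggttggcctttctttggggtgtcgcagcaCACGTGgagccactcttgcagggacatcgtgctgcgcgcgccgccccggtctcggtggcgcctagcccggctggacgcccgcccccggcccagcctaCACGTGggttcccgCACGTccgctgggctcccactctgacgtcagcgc
Pgam1: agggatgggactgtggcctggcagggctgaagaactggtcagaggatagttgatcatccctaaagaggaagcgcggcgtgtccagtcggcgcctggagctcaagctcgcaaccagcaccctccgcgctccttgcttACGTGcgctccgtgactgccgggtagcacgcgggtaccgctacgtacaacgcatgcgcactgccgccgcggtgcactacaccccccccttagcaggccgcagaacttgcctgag
Mxi1: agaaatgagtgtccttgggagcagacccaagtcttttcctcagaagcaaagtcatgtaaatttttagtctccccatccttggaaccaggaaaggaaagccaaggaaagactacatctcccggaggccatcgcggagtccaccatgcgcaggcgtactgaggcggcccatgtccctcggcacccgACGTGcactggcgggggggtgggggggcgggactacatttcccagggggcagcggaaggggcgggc
Bnip3: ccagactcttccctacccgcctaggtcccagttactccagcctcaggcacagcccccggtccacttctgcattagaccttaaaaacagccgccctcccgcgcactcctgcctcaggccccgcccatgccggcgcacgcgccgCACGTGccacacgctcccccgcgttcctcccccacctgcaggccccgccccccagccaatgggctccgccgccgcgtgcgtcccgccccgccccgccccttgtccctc
Hk2: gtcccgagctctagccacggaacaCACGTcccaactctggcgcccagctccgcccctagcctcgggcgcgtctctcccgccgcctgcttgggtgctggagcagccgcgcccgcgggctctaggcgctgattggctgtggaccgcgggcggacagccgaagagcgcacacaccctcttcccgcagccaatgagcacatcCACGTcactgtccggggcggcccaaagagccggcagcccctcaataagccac
The window of Ldha holds 5 matches at 3 places, of which 2 are palindromes, and it had the most places of all members. The matches of Pgam1 and Mxi1 are single, that of Bnip3 is a palindrome, and Hk2, which was lower in the EGCG libraries, holds 2 matches, both on the opposite strand. The windows of Gpi1 and Tpi1, which were higher in both EGCG libraries, hold no match.

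The libraries held 17767318 to 18390385 counts on genes, and a level is stated in CPM, the share of a gene in the TMM-scaled total of its library. All 35 members passed the filter on low counts and were tested with the 14682 genes that passed it. Aldoa had a second row with the same name (ENSMUSG00000114515), which held 4 and 5 counts in the controls against 1 and 3 with EGCG and was not tested. Markers of neutrophils and granulocytic MDSCs (11 genes, among them S100a8, Ly6g and Csf3r) summed to 59842 and 71436 CPM in controls against 80168 and 70850 CPM with EGCG, so that the groups overlapped. Of these 11 markers, 1 had an unadjusted p under 0.05, the alarmin S100a8, which was higher (log2 fold change 0.38, adjusted p = 0.228, edgeR), and 8 of the 11 had a positive log2 fold change, the others being Cxcr2 (-0.0078), Mmp8 (-0.06) and Ltf (-0.07). The summed monocyte markers (6 genes) were 1496 and 1275 CPM in controls against 1140 and 1184 CPM with EGCG, of which Fn1 alone made up 490.3 and 304 against 218 and 263 CPM. The summed markers of macrophages (7 genes) were 336 and 349 CPM in the control libraries and 276 and 287 CPM in the EGCG libraries, and those of endothelial cells (5 genes, of which Emcn was near 0) were 114 and 126 CPM against 94.2 and 98.6 CPM. At an unadjusted p under 0.05, 2 of 6 monocyte markers (Fn1 and F13a1), 3 of 7 macrophage markers and 4 of 4 tested endothelial markers were lower, compared with 7.02% of all tested genes, while the monocyte markers Ly6c2 and Ccr2 had log2 fold changes of 0.12 and -0.0021, and 0 passed after adjustment over all genes (edgeR). The sums of B cell, T and NK cell, erythroid and platelet markers lay at 303 to 349, 86.2 to 102, 154 to 206 and 34.2 to 43.6 CPM, with Ms4a1 and Hbb-bs higher and Itga2b lower at an unadjusted p under 0.05. Of the 6 epithelial and tumor markers, Krt14 and Krt5 were at 0 and Krt8 held at most 2 counts in every library. Epcam had 65 and 59 counts in the controls against 92 and 99 with EGCG (log2 fold change 0.63, adjusted p = 0.235, edgeR). Krt18 had 19 and 10 counts against 24 and 19 (log2 fold change 0.57, adjusted p = 0.629, edgeR). Cdh1 had 402 and 366 against 294 and 345 (log2 fold change -0.26, adjusted p = 0.403, edgeR). Fewer cells of a type and less RNA per cell cannot be told apart in such bulk libraries, and the part of these cells in the values of the members was not tested.

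The members were strongly expressed as a list, as the plot of their levels shows. To compare genes with each other, CPM was divided by the exonic length of the gene (CPM per kb). By this measure 28 of the 35 members lay above the median of the expressed genes and 11 lay in the top 10%, and the median member stood at percentile 81.1. The order was led by Pkm, the pyruvate kinase that makes the last ATP of glycolysis, with 435 ± 2.04 CPM per kb in controls against 455 ± 6.53 with EGCG (SD, n = 2), followed by the aldolase Aldoa with 346 ± 2.06 and 366 ± 15.2. The next 4 genes, the hexokinase Hk3, the lactate exporter Slc16a3, the glucose phosphate isomerase Gpi1 and the lactate dehydrogenase Ldha, had overlapping ranges between 152 and 196 CPM per kb and could not be ordered. The lowest members were Aldoc, Adm, Pfkm, Ankrd37 and Pdk1, all at or under 1.31 CPM per kb in every library, and none of these was separated from the next in the order. Of the 34 pairs of neighbours in the order, 13 had ranges over the 4 libraries that did not overlap. These levels use only the counts on each gene's own row. Most counts of Gapdh, Eno1 and Pgam1 lay on copies elsewhere in the genome, as described below, so their places in the order are uncertain.

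**Figure D1:**
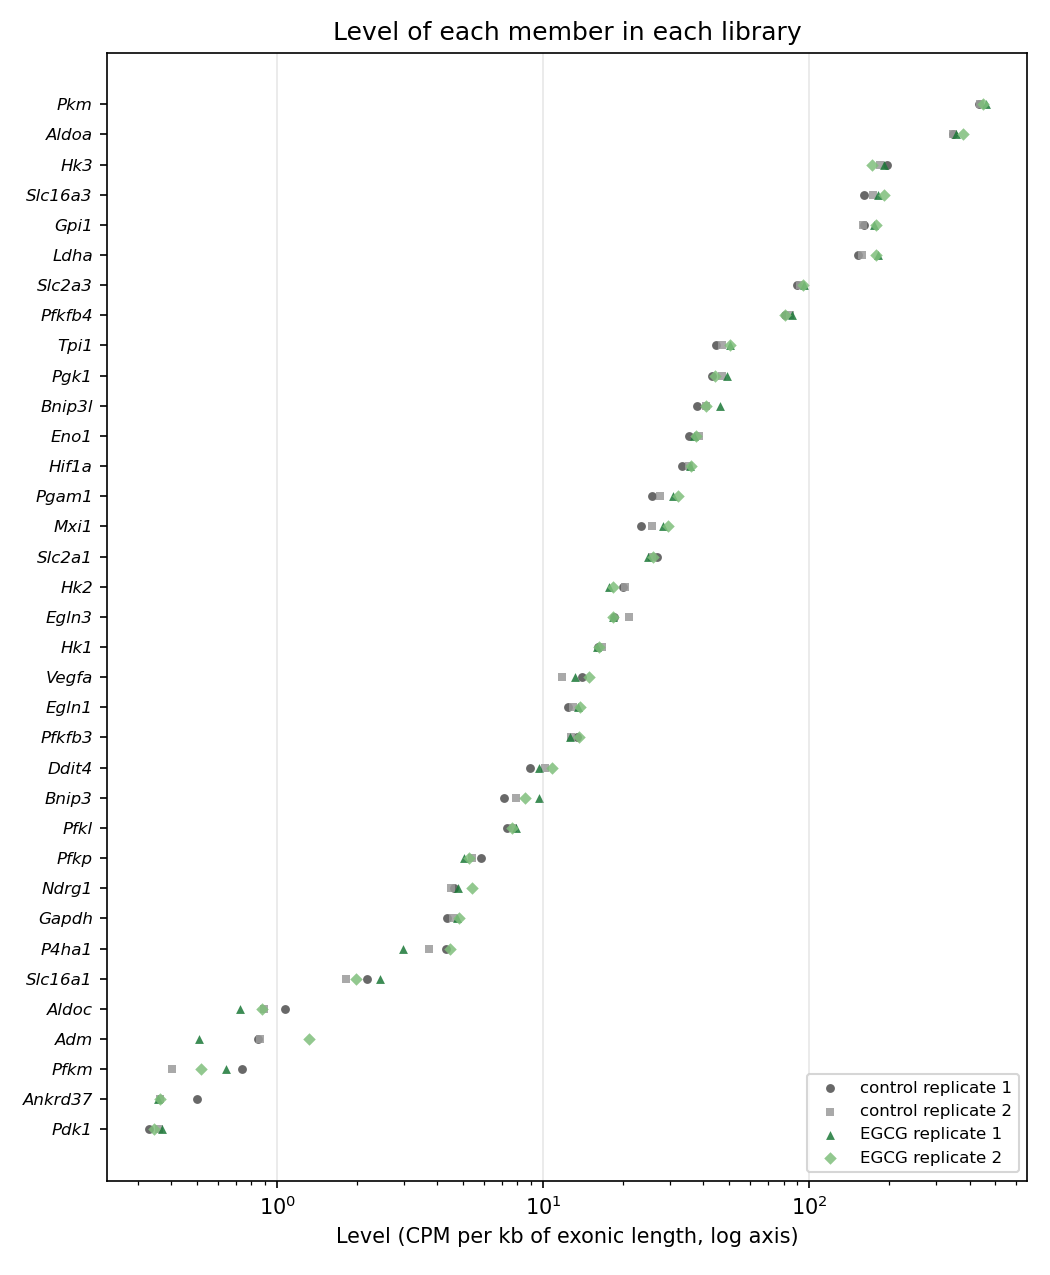
Levels of the 35 members in each library, in CPM per kb of exonic length on a log axis, in the order of their mean. The 4 points of a gene lie close together for most genes and are wider for the lowest ones. Pkm is the highest (433 to 460 CPM per kb) and Pdk1 the lowest (0.331 to 0.369).

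The levels per kb also show how members of the same family compare, and each share below is of the summed level of the named members only, with the family's other genes from the further lists set beside it. Hk3, a hexokinase of myeloid cells, took 83.2 to 85.1% of the sum of Hk1, Hk2 and Hk3 in the 4 libraries, while Hk2 took 7.87 to 9.16%. Of Slc2a3 (GLUT3) and Slc2a1 (GLUT1), Slc2a3 took 77.1 to 79.4%, but Slc2a6, a transporter of the same family that is no member, was higher than either in every library (119 to 128 CPM per kb, against 89.9 to 95.4 for Slc2a3). Of the monocarboxylate transporters Slc16a3 (MCT4), the lactate exporter, and Slc16a1 (MCT1), Slc16a3 took 98.7 to 99.0%, and Slc16a6 (7.91 to 9.86 CPM per kb) lay between the levels of these members. Phosphofructokinase was shared between the liver type Pfkl (52.7 to 58.2%) and the platelet type Pfkp (37.1 to 42.0%), with the muscle type Pfkm at 2.98 to 5.32%. Of Pfkfb4 and Pfkfb3, bifunctional enzymes that set fructose 2,6-bisphosphate, an activator of phosphofructokinase, Pfkfb4 took 85.6 to 87.2%, while Pfkfb1 and Pfkfb2 were under 0.88 CPM per kb in every library. Of Aldoa and Aldoc, Aldoa took 99.7 to 99.8%. Of the prolyl hydroxylases Egln3 (PHD3) and Egln1 (PHD2), Egln3 took 57.1 to 61.7%, but Egln2 (PHD1), which is no member, was higher than both in every library (33.6 to 36.6 CPM per kb). The order of the named members within each family was the same in all 4 libraries.

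EGCG against control was the comparison of the study, and 0 of the 35 members passed it at an adjusted p under 0.05 (edgeR quasi-likelihood test, Benjamini-Hochberg over all tested genes). Of all tested genes, 0.136% were lower and 0.0136% higher by this rule, so that few calls were made anywhere. DESeq2 also called 0 members. At an unadjusted p under 0.05, 4 members were higher (Ldha, Pgam1, Mxi1 and Bnip3) and 1 was lower (Hk2), and the background of all tested genes was 5.22% higher and 7.02% lower. These 4 members were between 16.3 and 20.9% higher in the EGCG group, and Hk2 was 10.5% lower. With DESeq2 the members with an unadjusted p under 0.05 were Ldha, Mxi1, Pgam1 and Gpi1, all higher. The background given above is that of edgeR, and none is given for DESeq2, so these members are not read against one.

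Most differences were small and positive. Of the 35 members, 26 had a positive log2 fold change, compared with 50.6% of all tested genes, and the median was 0.06, compared with 0.0031 over all tested genes. In 14 members both EGCG libraries were above both control libraries (background 21.5%), and in 4 members both were below (background 21.2%). Control replicate 1 was the lowest library for 17 of the 35 members, whereas it was the lowest for 29.3% of all tested genes. Leaving out control replicate 1 gave a member median of 0.05, and leaving out control replicate 2 gave 0.08, with no all-gene median beside them. The member median was 0.02 with library size as the only scaling, where all genes had a median of -0.03, and 0.10 with a correction for gene length, where all genes had 0.03. The mean chi-square of the counts per gene measures how far 2 libraries differ over all genes. It was 14.4 and 11.2 for control replicate 1 against EGCG replicates 1 and 2. For control replicate 2 it was 6.90 and 6.14, and between the controls it was 6.25.

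**Figure D2:**
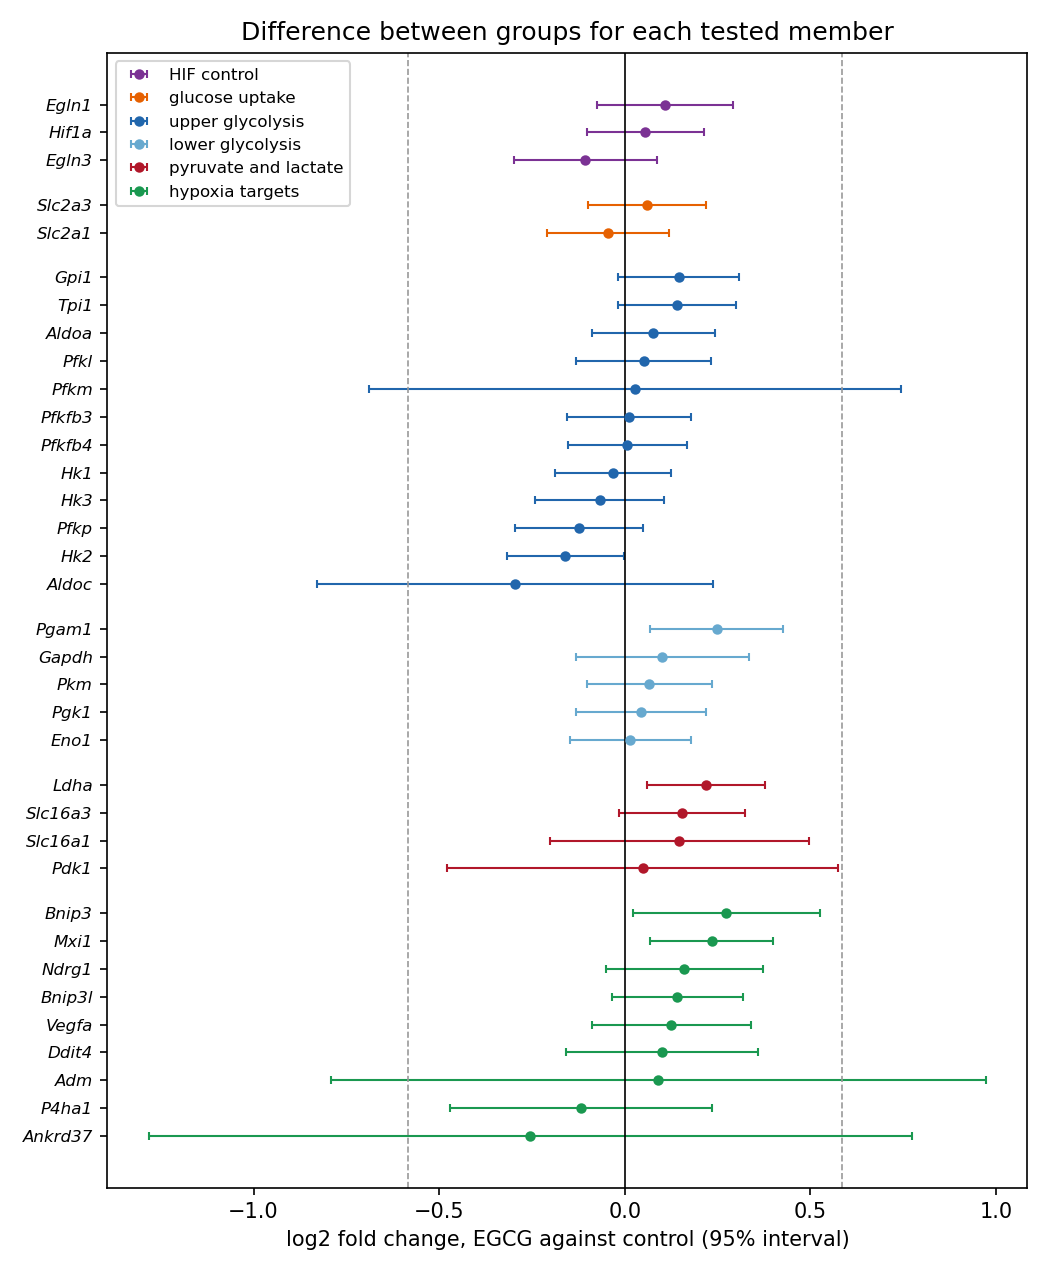
Log2 fold change of EGCG against control for the 35 members by role, with 95% intervals from the edgeR fit. The dashed lines mark a change of 1.5-fold in either direction, and the intervals of 31 members lie between them.

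The precision limits what can be said of the members that did not pass. The 95% interval of the difference lay within a 1.5-fold change in either direction for 31 of the 35 members, the exceptions being Pfkm, Aldoc, Ankrd37 and Adm, which had few counts. It lay within a 2-fold change for 34, the exception being Ankrd37. With 2 libraries against 2, an exact permutation test of a single gene cannot give a two-sided p under 0.333.

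The HIF-1 subunit and its hydroxylases differed little. Hif1a had 196.4 and 208.8 CPM in the control libraries and 209.5 and 211.7 CPM in the EGCG libraries, a log2 fold change of 0.06 (SE 0.07, adjusted p = 0.819, edgeR). The groups were just apart, since control replicate 2 lay beside EGCG replicate 1. The log2 fold change of Hif1a ran from 0.017 to 0.10 over the fits that leave out a library. Egln1, the main oxygen sensor that hydroxylates the alpha subunit, had 44.5 and 46.6 CPM against 48.7 and 49.5 CPM, a log2 fold change of 0.11 (SE 0.09, adjusted p = 0.663, edgeR). Egln3, a hydroxylase that is itself a HIF-1 target, had 49.2 and 55.7 CPM in the control libraries and 48.6 and 48.8 CPM in the EGCG libraries, a log2 fold change of -0.11 (SE 0.09, adjusted p = 0.681, edgeR). Both groups of Egln3 were nearly level but for control replicate 2, which stood above the other libraries.

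Glucose uptake genes were also nearly level. Slc2a3 had 651 and 668 CPM in the control libraries and 691 and 683 CPM in the EGCG libraries, a log2 fold change of 0.06 (SE 0.07, adjusted p = 0.805, edgeR). Slc2a1 lay between 86.6 and 93.8 CPM in the 4 libraries, and its groups overlapped.

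In the first stage of glycolysis (upper glycolysis in the plot), from hexokinase to triose phosphate isomerase, 7 of 12 members had a positive and 5 a negative log2 fold change, with a median of 0.01. Hk2, a hexokinase that is induced in many activated cells, had 119 and 121 CPM in the control libraries and 106 and 109 CPM in the EGCG libraries. Both EGCG libraries were below both control libraries, by more than the spread within either group. The log2 fold change was -0.16 (SE 0.07), a level 10.5% lower with a 95% interval from 19.8% lower to 0.174% lower, and the adjusted p was 0.403 (unadjusted p = 0.0469, edgeR). The unadjusted p of Hk2 was over 0.05 when any of the 4 libraries was left out (0.0845 to 0.220 by edgeR), and also with DESeq2 (0.0929). Hk1 (135 to 142 CPM) and Hk3 (631 to 721 CPM), which start the pathway in the same way, had overlapping groups.

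Gpi1 and Tpi1, the isomerases of this stage, were higher in both EGCG libraries. Gpi1 had 1038 and 1026 CPM in the control libraries and 1131 and 1151 CPM in the EGCG libraries, a log2 fold change of 0.14 (SE 0.08, adjusted p = 0.471, edgeR). Tpi1 had 122.8 and 129.5 CPM against 139.1 and 139.1 CPM, a log2 fold change of 0.14 (SE 0.07, adjusted p = 0.472, edgeR). Each of these was about 10% higher, and neither interval left out 0.
Aldoa, which splits fructose 1,6-bisphosphate, had 1013 and 1004 CPM in the control libraries and 1033 and 1095 CPM in the EGCG libraries (log2 fold change 0.08, SE 0.08). Aldoc, its brain form, had 3.50 and 2.91 CPM against 2.37 and 2.86 CPM, which were 64 and 52 counts against 43 and 51 counts. Its lower EGCG values were thus apart from the controls by a margin of 1 count before scaling, and the log2 fold change was -0.30 (SE 0.25, adjusted p = 0.680, edgeR).
Pfkp had 78.1 and 72.5 CPM in the control libraries and 67.6 and 70.7 CPM in the EGCG libraries, a log2 fold change of -0.12 (SE 0.08, adjusted p = 0.583, edgeR), which became 0.03 with the correction for gene length. Pfkl (48.8 to 52.9 CPM), Pfkfb3 (95.5 to 103 CPM) and Pfkfb4 (395 to 418 CPM) had overlapping groups. Pfkm had 45 and 24 counts in the controls against 39 and 31 with EGCG (2.46, 1.34, 2.15 and 1.74 CPM), and its interval ran from -0.69 to 0.74 on the log2 scale.

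**Figure D3:**
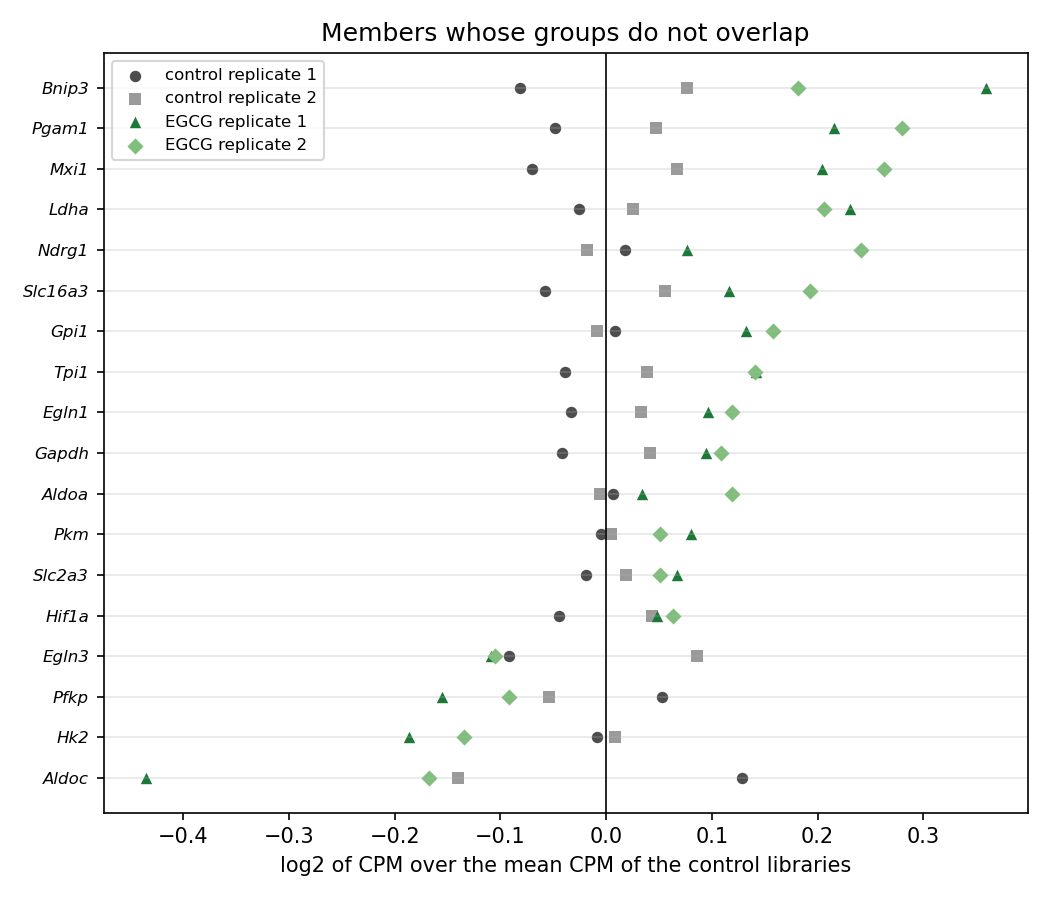
The 18 members whose groups do not overlap, each library drawn as the log2 of its CPM over the mean CPM of the control libraries. In 14 members both EGCG libraries lie to the right of both control libraries and in 4 (Egln3, Pfkp, Hk2 and Aldoc) to the left, and for Hif1a and Egln3 the nearest libraries of the groups almost touch.

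In the second stage of glycolysis, from glyceraldehyde phosphate to pyruvate, all 5 members had a positive log2 fold change, from 0.02 to 0.25, with a median of 0.07. Pgam1, the phosphoglycerate mutase, had the largest. It had 50.8 and 54.2 CPM in the control libraries and 60.9 and 63.7 CPM in the EGCG libraries, and the gap between the groups was wider than the spread within either. The log2 fold change was 0.25 (SE 0.08), a level 18.7% higher with a 95% interval of 4.82 to 34.5%, and the adjusted p was 0.259 (unadjusted p = 0.0104, edgeR). Leaving out control replicate 1 gave an unadjusted p of 0.0611, and leaving out EGCG replicate 2 gave 0.0693 (edgeR).
Pkm had 2167 and 2182 CPM in the control libraries and 2299 and 2253 CPM in the EGCG libraries, a log2 fold change of 0.07 (SE 0.08, adjusted p = 0.793, edgeR). Pgk1 (96.9 to 110 CPM), the phosphoglycerate kinase, and Eno1 (189 to 207 CPM), the enolase, had overlapping groups. Gapdh, the glyceraldehyde phosphate dehydrogenase that is often used as a reference gene, had only 17.9 and 19.0 CPM in the control libraries and 19.7 and 19.9 CPM in the EGCG libraries (log2 fold change 0.10, SE 0.11, adjusted p = 0.762, edgeR).

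The low level of Gapdh goes with counts on its copies in the genome. Of the members, 11 share at least 5% of the 31-base words of their transcripts with another gene that does not overlap them, mostly pseudogenes, and Gapdh has 90 such copies. Gapdh itself held 327 and 339 counts in the controls against 357 and 355 with EGCG. Its pseudogene Gm13394 (chr2:28933610-28934609, GRCm38) held 11214 and 11285 counts in the controls against 13242 and 12442 with EGCG. The copies together took 97.2 to 97.5% of the counts of Gapdh and its copies. The same share was 68.8 to 69.7% for Eno1, with Eno1b in the lead, and 59.2 to 63.6% for Pgam1, whose copy Pgam1-ps2 held 1616 and 1470 counts in the controls against 1597 and 1724 with EGCG. It was 20.3 to 23.1% for Bnip3l, 21.1 to 22.2% for Gpi1 and at most 13.02% for the other members. How reads that match several genes were counted is not given in the sources used here, so levels of these members are uncertain.
With the counts of the copies added to those of the member, a step chosen after seeing the data, the log2 fold change of Gapdh became 0.19 (SE 0.08, adjusted p = 0.332; unadjusted p = 0.0229, edgeR) and that of Pgam1 0.17 (SE 0.07, adjusted p = 0.401; unadjusted p = 0.0448, edgeR). That of Bnip3 became 0.23 (SE 0.11, adjusted p = 0.415), and its unadjusted p of 0.0519 was no longer under 0.05 (edgeR). Ldha stayed at 0.22, since its copies held at most 2.20% of the counts.

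**Figure D4:**
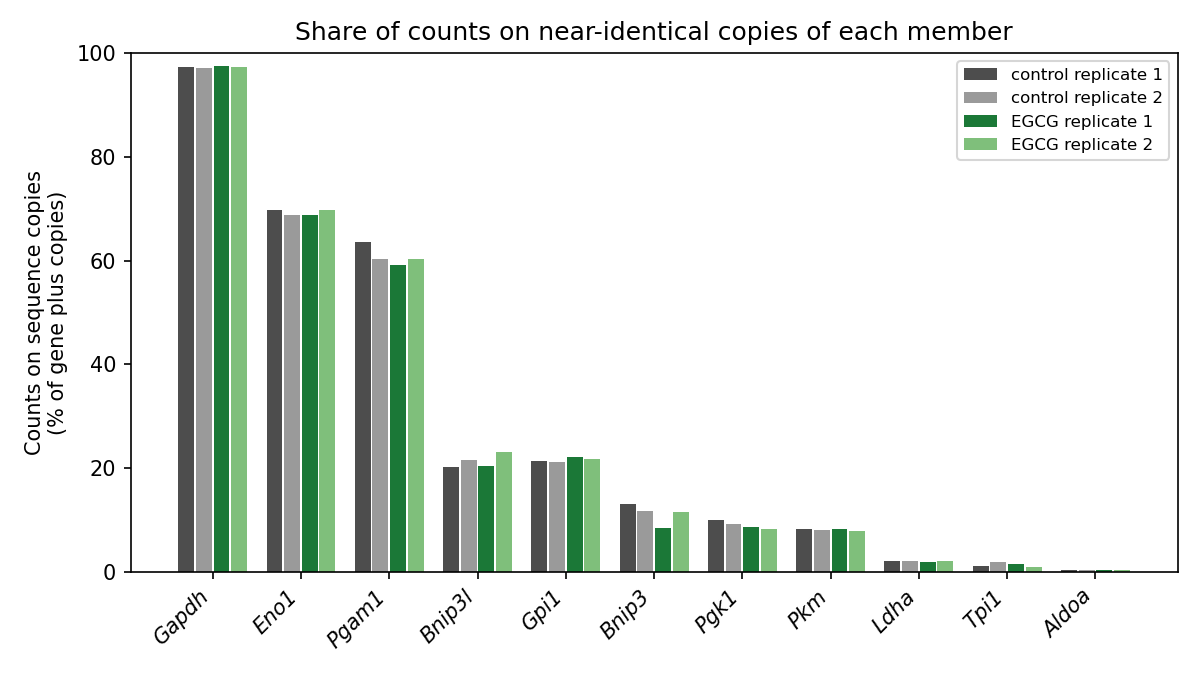
Share of counts on sequence copies for the 11 members that have such copies, in percent of the counts of the member plus its copies, one bar per library. Copies hold most of the counts of Gapdh, Eno1 and Pgam1, and the share differs by less than 5 percentage points between the libraries of a gene.

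All 4 genes of pyruvate and lactate had a positive log2 fold change, with a median of 0.15. Ldha, which reduces pyruvate to lactate, had 503 and 521 CPM in the control libraries and 600.4 and 590.0 CPM in the EGCG libraries. The groups were clearly apart, with a gap over 3 times the spread within either group. The log2 fold change was 0.22 (SE 0.07), a level 16.3% higher with a 95% interval of 4.21 to 29.9%, and the adjusted p was 0.260 (unadjusted p = 0.0106, edgeR). Ldha was the member whose unadjusted p stayed under 0.05 with each library left out and in each of the 11 other settings, with a highest value of 0.0401 (edgeR, without control replicate 1).
Slc16a3, which carries lactate out of the cell, had 851 and 921 CPM in the control libraries and 960 and 1012 CPM in the EGCG libraries, a log2 fold change of 0.16 (SE 0.08, adjusted p = 0.461, edgeR). The EGCG libraries were higher, but the spread within the control group was wider than the gap. Slc16a1, a transporter that also takes lactate up, lay between 8.06 and 10.8 CPM with overlapping groups. Pdk1, the kinase that keeps pyruvate out of the citric acid cycle, had 47 and 50 counts in the controls against 52 and 48 with EGCG (2.57, 2.80, 2.87 and 2.69 CPM), so the groups overlapped (log2 fold change 0.05, SE 0.25).

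Of the 9 other hypoxia targets, 7 had a positive log2 fold change, and the median was 0.13. Mxi1, which encodes a repressor that competes with Myc for its partner Max, had 159 and 175 CPM in the control libraries and 192 and 200.3 CPM in the EGCG libraries. All EGCG values were above the controls, and control replicate 1 was the lowest library. The log2 fold change was 0.23 (SE 0.08), a level 17.6% higher with a 95% interval of 4.88 to 31.9%, and the adjusted p was 0.246, the smallest of the members (unadjusted p = 0.00886, edgeR). The unadjusted p was 0.0773 without control replicate 1 (edgeR).
Bnip3, a mitochondrial protein that promotes mitophagy, had 16.1 and 17.96 CPM in the control libraries and 21.8 and 19.3 CPM in the EGCG libraries. The spread within each group was larger than the gap between them. The log2 fold change was 0.27 (SE 0.12), a level 20.9% higher with a 95% interval of 1.51 to 43.9%, and the adjusted p was 0.376 (unadjusted p = 0.0353, edgeR). The unadjusted p of Bnip3 was above 0.05 when control replicate 1 (0.176) or EGCG replicate 1 (0.227) was left out. It was 0.0619 with library size as the only scaling (edgeR), and 0.113 with DESeq2. Its relative Bnip3l, with the same role in mitophagy, lay between 146 and 178 CPM with overlapping groups (log2 fold change 0.14, SE 0.08). The value of Bnip3l ran from 0.052 to 0.23 over the fits that leave out a library.

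Ndrg1, a hypoxia-induced gene linked to differentiation, had 30.4 and 29.7 CPM in the control libraries and 31.7 and 35.5 CPM in the EGCG libraries, a log2 fold change of 0.16 (SE 0.10, adjusted p = 0.555, edgeR). The difference came mainly from EGCG replicate 2. Vegfa, the angiogenic growth factor, lay between 50.3 and 63.9 CPM and Ddit4, an inhibitor of mTORC1, between 15.7 and 18.9 CPM, and the groups of both overlapped. P4ha1, a subunit of the collagen prolyl hydroxylase, was split by its EGCG libraries, with 17.8 and 15.3 CPM in the control libraries and 12.2 and 18.4 CPM with EGCG. Its value of -0.12 on the log2 scale (SE 0.16) became -0.44 without EGCG replicate 2 (unadjusted p = 0.00795, edgeR) and 0.15 without EGCG replicate 1.
The remaining members had too few counts to show a moderate difference. Ankrd37 had 14 and 10 counts in the controls against 10 and 10 with EGCG (0.767, 0.560, 0.552 and 0.560 CPM), with an interval from -1.28 to 0.77 on the log2 scale. Adm, the vasodilator adrenomedullin, had 25 and 25 counts in the controls against 15 and 38 with EGCG (1.37, 1.40, 0.827 and 2.13 CPM), so that the EGCG libraries lay on both sides of the controls.

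Further genes of the same pathways were read from the same fit. Of 32 further glycolysis genes, such as other isozymes, transporters and pyruvate dehydrogenase kinases, 25 were tested, 0 had an adjusted p under 0.05 and 0 an unadjusted p under 0.05 (edgeR), and the median log2 fold change was 0.0046. Of 49 further hypoxia genes, 41 were tested and 0 had an adjusted p under 0.05 (edgeR, and DESeq2 also gave 0), while 4 were higher and 4 lower at an unadjusted p under 0.05 (backgrounds of 5.22 and 7.02%), with a median of -0.04.
The higher genes were Fam162a, a HIF-1 target of the mitochondria, with 40.9 and 44.2 CPM in the control libraries and 49.1 and 57.7 CPM in the EGCG libraries, Tpd52 (log2 fold change 0.22), Higd1a (0.24), which acts at the respiratory chain, and Ccng2 (0.17), a cyclin that holds back the cell cycle. Fam162a had a log2 fold change of 0.33 (SE 0.10, adjusted p = 0.217, edgeR). Omitting single libraries moved this value both ways, for example to 0.44 (EGCG replicate 1 omitted) or 0.28 (control replicate 1 omitted). The lower genes were Edn1 (-0.97) and Epas1 (-0.60), Ak4 (-1.42) and Hmox1 (-0.20). Epas1 encodes HIF-2 alpha and Edn1 endothelin-1, both best known from endothelial cells. Epas1 had 78 and 67 counts in the controls against 48 and 47 with EGCG, and Edn1 had 42 and 66 against 30 and 25. The tested endothelial markers Pecam1, Cdh5, Kdr and Tek were lower in the same libraries (log2 fold changes of -0.26, -0.87, -0.75 and -1.11). The cells had been selected for Gr-1, and the part of any remaining endothelial cells in the values of Epas1 and Edn1 was not tested. Hmox1 encodes the heme oxygenase that is also an NRF2 target and is abundant in macrophages. It had 346 and 334 CPM in the control libraries against 264 and 327 CPM with EGCG. EGCG replicate 2 lay beside the controls, and omitting it took the value of Hmox1 from -0.20 to -0.36 on the log2 scale. The unadjusted p of Hmox1 was not under 0.05 with upper-quartile scaling, without the filter or with DESeq2. Ak4 held only 10 and 20 counts in the controls against 9 and 2 with EGCG. The log2 fold change of Ak4 was -2.82 without EGCG replicate 1 and -1.85 without control replicate 1.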

How the data were processed

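Reads had been mapped by the authors with STAR 2.6.0c (GRCm38) and assigned to genes of Ensembl release 91 with featureCounts 1.6.2, without use of the strand. The deposited values are whole-number counts per gene, not normalized, for 4 libraries (0 columns of other samples and 0 rows without a gene). The total per library was 17767318 to 18390385 counts, and the intervals given assume only the spread that the fit estimates.

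From the counts, edgeR 4.0.16 was used to filter genes (filterByExpr, minimum count 10), to compute TMM factors and to run the quasi-likelihood test of the treatment (legacy form, no block). P values were adjusted by Benjamini-Hochberg over 14682 genes with a threshold of 0.05. The standard error is the log2 fold change divided by the square root of F. The test and the correction for gene length were first tried on simulated data. Positions and exonic lengths were taken from GENCODE M21 (GRCm38; 53360 of 53465 identifiers found), and promoters from RefSeq (GRCm38.p6). R 4.3.3, DESeq2 1.42.0, limma 3.58.1, Python 3.11.15, NumPy 2.4.6, pandas 2.3.3, SciPy 1.17.1 and matplotlib 3.10.9 were used.

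All 35 members are named. Those with an adjusted or unadjusted p under 0.05, with groups that do not overlap, or with fewer than 100 counts in a library have each library's value given. Of the further pathway genes, those with an unadjusted p under 0.05 are named, at most 5 in each direction. The rule for the members uses no measured value. The members, lists and tests were still chosen with earlier results of these data known, so no p was computed over a list. Alternatives were other scalings and filters, other edgeR fits, DESeq2, a correction for gene length (loess span of 0.4), a replicate block, and leaving out each library.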

Additional observations from a re-analysis of the deposited data

How the results depend on the processing

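No member passed an adjusted p of 0.05 in any of the 11 other settings or with any of the 4 libraries left out (edgeR or DESeq2, 2 to 7 members at an unadjusted p under 0.05), and the smallest adjusted p was 0.0797 (Mxi1 without control replicate 2). A group reduced to 1 library is assumed to vary like the other. The sign was kept everywhere by 23 of the 35 members. With library size only, the log2 fold change was -0.019 for Eno1, -0.025 for Pfkfb3, -0.028 for Pfkfb4 and -0.010 for Pfkm, and with the length correction it was 0.063 for Hk1 and 0.027 for Pfkp. Over the 4 fits that leave out a library, the range was -0.74 to 0.62 for Adm, -0.043 to 0.083 for Eno1, -0.15 to 0.0097 for Hk3, -0.44 to 0.15 for P4ha1, -0.0056 to 0.11 for Pdk1, -0.044 to 0.068 for Pfkfb3, -0.031 to 0.047 for Pfkfb4, -0.34 to 0.54 for Pfkm, -0.029 to 0.12 for Pgk1 and -0.0077 to 0.29 for Slc16a1. Members that kept their sign could also move in size. Over the same fits the range was 0.0057 to 0.26 for Vegfa and 0.015 to 0.20 for Ddit4. It was -0.19 to -0.013 for Egln3 and -0.46 to -0.0054 for Ankrd37. The cause was not tested.

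Members higher at an unadjusted p under 0.05 numbered 7 with the length correction. Those lower numbered 0 with upper-quartile scaling, without the filter, with edgeR's newer fit, with the length correction and with DESeq2. The share of all genes under this p is given only for the reported fit. Counts of members or further genes in the other fits therefore have no background beside them and are not read against one. The median of the members was 0.024 with library size only and 0.10 with the length correction. Fold changes fell with gene length (Spearman correlation -0.286 across 14666 genes, which are not independent, and -0.0293 after the correction).

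Of the further pathway genes, 0 to 1 passed the adjusted threshold with a library left out. Those higher at an unadjusted p under 0.05 numbered 6 with the length correction (4 in the reported fit), 2 with library size only and 2 with DESeq2. Those lower numbered 2 without the filter, 2 with a mean count of 50 or more and 1 with DESeq2. These counts also lack the share of all genes in the same fit.

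Over all genes, 20 were lower and 2 higher at an adjusted p under 0.05. These counts were 135 and 16 with library size only, 49 and 14 with edgeR's robust fit, 25 and 6 with its newer fit, 9 and 2 with upper-quartile scaling, 0 and 0 without the filter, 9 and 1 with a mean count of 50 or more, 1 and 2 with the length correction, 51 and 16 with DESeq2, and 72 to 235 lower and 5 to 119 higher with a library left out. With the replicate block they were 24 and 6, and no member or further gene crossed the adjusted threshold. The deviations of same-numbered libraries from their group means had a correlation of 0.0336 across genes. With 2 libraries per group, the deviations of replicate 2 mirror those of replicate 1. This single value therefore cannot tell whether the numbers pair the samples. Summing sequence copies, chosen after seeing the data, changed no sign, but took Bnip3 to an unadjusted p of 0.0519 and Gapdh to 0.0229 (edgeR). Depth and the 2 libraries per group limit the precision to the intervals given.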
